A study of Mus musculus with 18 samples.

Results

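Messenger RNA of the left ventricle was compared between mice labelled knockout for the muscle LIM protein (MLP) and wild-type mice at 10 weeks of age. The 6 libraries were chosen by their labels, 3 KO and 3 WT, out of 18 in the series. The other 12 are KO and WT libraries of younger mice, 3 and 6 weeks old, and enter here as the base of the differences between ages. All animals were male and carried the 129SVE background, in KO and WT alike, and the tissue was the mid wall of the left ventricle. The labels do not say that the 3 libraries of a group came from separate animals, so p-values measure the spread between these libraries, which may be technical. The series followed dilated cardiomyopathy as it progressed to heart failure.

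MLP, the product of Csrp3, is a small adaptor protein of striated muscle that sits at the Z-disc, where the thin filaments of neighbouring sarcomeres are anchored. Mice without it are a long-used model of dilated cardiomyopathy, with a thin-walled, enlarged and weakly contracting ventricle. A failing ventricle is known for re-expressing genes of the foetal heart, for laying down matrix, and for a shift of fuel use away from fatty acids.

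Csrp3 (ENSMUSG00000030470; GRCm38 chromosome 7, 48830398 to 48848033, minus strand) was at 1001, 1124 and 1018 CPM in WT and 2777, 3416 and 1501 CPM in KO. CPM are counts relative to the library total after TMM scaling. The 3 KO values all lay above the 3 WT values (log2 1.29, SE 0.30, adjusted p = 0.0041). The SE was taken from the fold change and its quasi-likelihood F statistic (its size over the square root of F), and p was adjusted over all genes tested. The labels do not say which part of the gene was targeted and the counts cover the whole gene, so Csrp3 does not check the genotype, and WT and KO are used as the labels give them.

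Totals ran from 17859293 to 20026389 counts in WT and from 15873296 to 19533085 in KO. Mitochondrially encoded genes took 14.1% ± 0.846 of the counts in WT and 8.37% ± 1.20 in KO (SD, n = 3; exact permutation test, two-sided p = 0.1, the smallest that 3 against 3 libraries allow). The first principal component of the 6 libraries held 62.5% of the variance, with scores from -56.5 to -49.1 in WT and from 38.4 to 60.6 in KO. The second held 16.2% and spread the KO libraries over 49.2, -16.3 and -39.7. Libraries of 1 group differed by more than counting noise, with a chi-square per degree of freedom of 7.53 to 11.3 between WT pairs and 31.3 to 64.1 between KO pairs. Cardiomyocyte markers summed to 79717 to 87025 CPM in WT and 92973 to 102470 CPM in KO, with 3 of 10 higher and 1 lower in KO.

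KO replicate 1 stood apart from the other KO libraries in transcripts of other tissues. Myl7, the atrial regulatory light chain, was at 637, 1.87 and 3.44 CPM in the KO libraries and at 0.838, 17.02 and 0.116 CPM in WT. Sln, which encodes the atrial calcium pump inhibitor sarcolipin, was at 506, 0.786 and 3.33 CPM in KO and 0.395, 5.66 and 0 CPM in WT. Cfd, the adipocyte protease adipsin, was at 65.2, 0.302 and 0.584 CPM in KO and 1.08, 2.18 and 0.465 CPM in WT. Among the 6 libraries at 10 weeks, high values of these 3 genes were thus seen in 1, and none of the 3 passed the test. The adipocyte list had 0 of 5 tested markers called, with a summed level of 359.8 to 502 CPM in WT and 274 to 513 CPM in KO. Other members made up most of this sum. Adipoq, Cfd, Plin1 and Cidec were at 13.5, 65.2, 14.7 and 18.5 CPM in KO replicate 1. Each was at 2.18 CPM or less in every other library at 10 weeks. The atrial list had 1 of 9 called, Nppa, which was high in every KO library and made up most of its summed level of 12713 to 17499 CPM in KO, against 272 to 419 CPM in WT. Without KO replicate 1 the adipocyte list had 1 member called and the atrial list 2. KO replicate 3 at 6 weeks carried such transcripts too, with Myl7 at 175 CPM, Sln at 190.3 CPM and Cfd at 76.5 CPM, and KO replicate 3 at 3 weeks had Myl7 at 72.3 CPM and Sln at 56.6 CPM. Without these 3 KO libraries 4320 genes were called at 10 weeks, against 4625 with them, an alternative chosen after seeing the data.

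**Figure D1:**
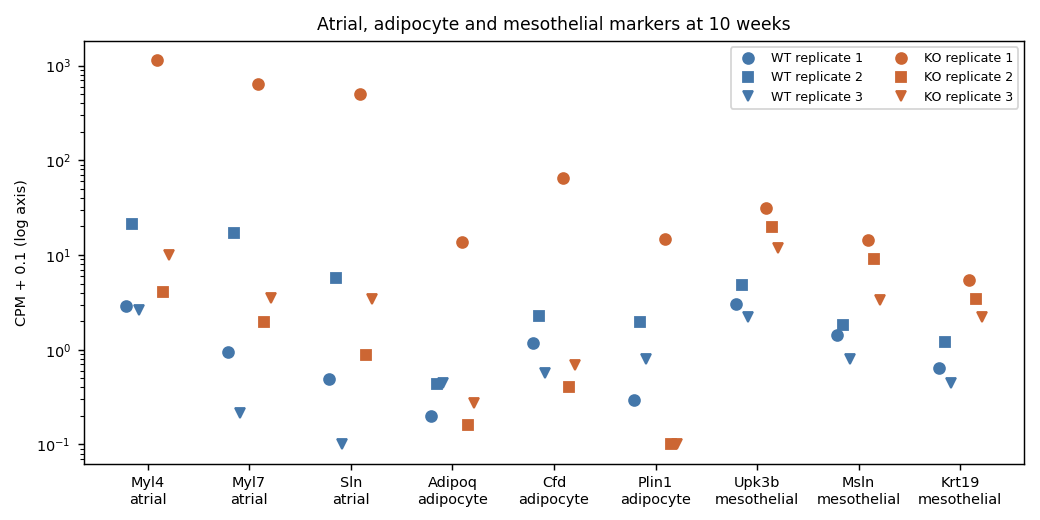
Atrial, adipocyte and mesothelial marker genes in the 6 libraries at 10 weeks, as CPM + 0.1 on a log axis, with 1 point for each library (blue WT, orange KO, symbols for the replicates). KO replicate 1 lies far above the other 5 libraries for the atrial genes Myl4, Myl7 and Sln and the adipocyte genes Adipoq, Cfd and Plin1, while the mesothelial genes Upk3b, Msln and Krt19 are higher in all 3 KO libraries than in WT.

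Out of 49315 genes deposited, 15778 were tested, and 4625 of them (29.3%) were called different between KO and WT at an adjusted p under 0.05. The calls split evenly, with 2309 genes (14.6%) higher and 2316 (14.7%) lower in KO. The difference was over 2-fold for 1768 genes, 979 higher and 789 lower. The 3 KO values did not overlap the 3 WT values for 6393 genes (40.5%). Without KO replicate 1 there were 4284 calls among 16171 genes tested, and 3693 genes were called in both fits, all in the same direction. In each of the 6 fits that left out 1 library, 2759 of the 4625 genes were called. Among genes called higher, KO replicate 3 held the lowest of the KO values for 1151 of 2309, replicate 1 for 848 and replicate 2 for 310. The median log2 fold change over all genes tested was -0.03.

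Genes of the stressed and foetal cardiomyocyte were among the largest increases. Of the 24 genes in this list, all tested and Csrp3 among them, 19 were higher and 2 lower in KO, with a median log2 fold change of 2.79, beside 14.6% and 14.7% of all genes and their median of -0.03. Without KO replicate 1 the counts were 18 and 2, with a median of 2.29. Nppa, the precursor of atrial natriuretic peptide, was at 235, 301 and 192 CPM in WT and 10308, 17428 and 13596 CPM in KO (log2 5.83, SE 0.38, adjusted p = 3.8e-08). Each KO library lay far above each WT library. Nppb, which encodes B-type natriuretic peptide, was at 505, 581 and 516 CPM in WT and 3285, 4274 and 1660.1 CPM in KO (log2 2.53, SE 0.36, adjusted p = 0.00014). Its lowest KO value, in replicate 3, was still above all 3 WT values.

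Actin and myosin isoforms of the foetal and skeletal programmes moved in different ways. Acta1, skeletal alpha-actin, was at 494, 445 and 445 CPM in WT and 11609, 19558 and 11265 CPM in KO (log2 4.94, SE 0.32, adjusted p = 2.5e-08). Actc1, the cardiac alpha-actin of the adult heart, was at 12199, 14395 and 16725 CPM in WT and 23175, 30704 and 22038 CPM in KO (log2 0.81, SE 0.14, adjusted p = 0.00021). Acta2, the smooth muscle actin that is also expressed in the foetal heart, went the other way, at 723, 452 and 618 CPM in WT and 144, 123 and 75.2 CPM in KO (log2 -2.39, SE 0.24, adjusted p = 2.1e-06). Groups did not overlap for any of the 3 actins. Myh7, the slow beta-myosin heavy chain, was at 1432, 1586 and 1640.1 CPM in WT and 6948, 14183 and 14601 CPM in KO (log2 2.94, SE 0.25, adjusted p = 2.9e-07), with the lowest KO value in replicate 1. Myh6, the fast alpha-myosin heavy chain that dominates the adult mouse ventricle, was at 41462, 46039 and 43271 CPM in WT and 48396, 49660.0 and 45508 CPM in KO (log2 0.13, SE 0.13, adjusted p = 0.47) and did not pass the test. Myh7b, a further myosin heavy chain gene of slow muscle and heart, was lower in KO (log2 -1.02, SE 0.17, adjusted p = 0.00012).

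Stretch-responsive and repair genes of the sarcomere rose as well. Ankrd1, a titin-binding ankyrin repeat protein induced by load, was at 719, 937 and 523 CPM in WT and 12446, 15334 and 8179.5 CPM in KO (log2 4.05, SE 0.50, adjusted p = 4.6e-05). Fhl1, a LIM protein that binds titin, was at 124, 138 and 114 CPM in WT and 2862, 3870.3 and 918 CPM in KO (log2 4.34, SE 0.63, adjusted p = 0.00020). Xirp2, an actin-binding protein of the intercalated disc, was at 385, 429 and 385 CPM in WT and 10151, 6915 and 1565 CPM in KO (log2 3.96, SE 0.74, adjusted p = 0.0014). In these 3 genes replicate 3 held the lowest KO value and was still above every WT value. Replicate 3 was the lowest KO library in 12 of the 19 list members called higher. Ankrd2, a muscle ankyrin repeat protein mostly known from skeletal muscle, was at 0.296, 0.112 and 0.407 CPM in WT and 63.7, 115 and 6.36 CPM in KO (log2 7.80, SE 1.89, adjusted p = 0.0079), a large difference with a wide spread among the KO libraries. Gdf15, a secreted stress cytokine, was at 2.27, 3.98 and 2.73 CPM in WT and 28.9, 68.1 and 46.0 CPM in KO (log2 3.999, SE 0.35, adjusted p = 3.8e-07). Rcan1, an inhibitor of calcineurin that calcineurin signalling itself induces, was at 118, 159 and 146 CPM in WT and 826, 1483 and 309.5 CPM in KO (log2 2.63, SE 0.46, adjusted p = 0.00088). Myl4 and Myl7, light chains of the atrium, belong to this list and did not pass, being high in KO replicate 1 alone, and Edn1, which encodes endothelin 1, was at 5.08, 4.70 and 5.46 CPM in WT and 9.96, 5.02 and 4.73 CPM in KO and did not pass either.

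**Figure D2:**
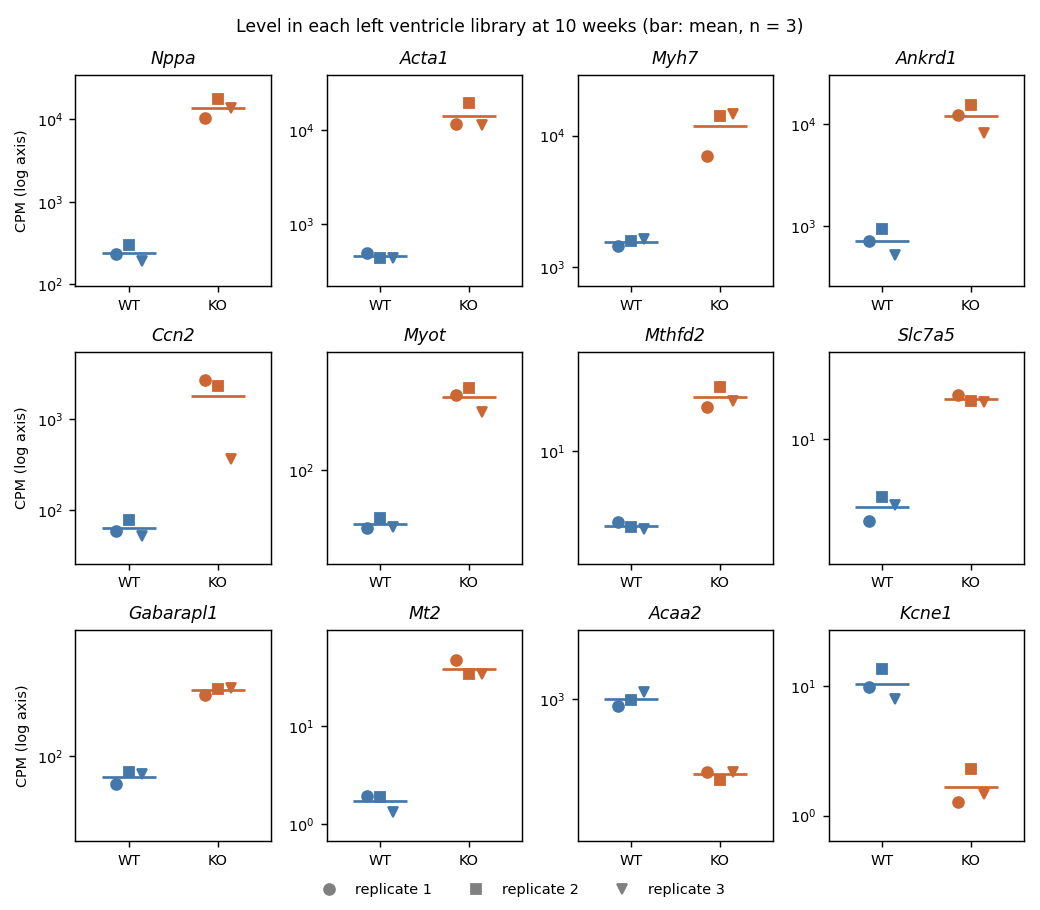
Levels of 12 genes in the 3 WT (blue) and 3 KO (orange) libraries at 10 weeks, as CPM on a log axis, with 1 point for each library and a bar at the mean of 3. The first 10 panels show genes higher in KO and the last 2, Acaa2 and Kcne1, show genes lower in KO. WT and KO points do not overlap in any panel, and among the 12 panels the KO points lie farthest apart for Ccn2, whose replicate 3 value was 362 CPM.

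The promoters of Acta1 and Myh7 are shown because stress genes that rose together are known targets of the factors TEAD and SRF, which read the letters CATTCC and the CArG box. RefSeq promoter windows (build GRCm38.p6, 250 bases before to 50 after the start, 5′ to 3′ on the gene's strand) matched 11381 of the genes tested, in 14483 windows. The capitals mark CATTCC, on either strand, and in Acta1 also the CArG box. The windows are chr8:123894726-123895025 (minus strand) for Acta1 and chr14:54994577-54994876 (minus strand) for Myh7.
Acta1: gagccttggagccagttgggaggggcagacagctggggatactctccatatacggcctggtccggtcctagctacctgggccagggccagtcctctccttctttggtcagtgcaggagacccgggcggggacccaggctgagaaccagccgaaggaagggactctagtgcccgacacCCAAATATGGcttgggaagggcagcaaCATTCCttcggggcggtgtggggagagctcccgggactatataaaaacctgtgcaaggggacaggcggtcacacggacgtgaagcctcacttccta
Myh7: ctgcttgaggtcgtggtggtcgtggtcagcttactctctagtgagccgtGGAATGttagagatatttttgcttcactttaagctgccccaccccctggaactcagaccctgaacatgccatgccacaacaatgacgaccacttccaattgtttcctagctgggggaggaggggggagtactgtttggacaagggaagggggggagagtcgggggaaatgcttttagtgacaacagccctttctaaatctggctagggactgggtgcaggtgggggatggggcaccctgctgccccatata
CATTCC on either strand was found in 11 of 32 windows of the stress list (34.4%), which covered 23 of its genes, and in 12.6% of all windows. The CArG box was found in 4 of 32 windows (12.5%), those of Acta1, Actc1, Fhl1 and Myl7, and in 1.30% of all. The windows with CATTCC included those of Acta2, which fell, and of Edn1 and Myl7, which did not pass. CATTCC was also in 23.8% of windows of the cytosolic heat shock and autophagy list. It was in 5% of clock, 4.55% of glucocorticoid and 4% of ATF4 list windows. The stress list was drawn up from known genes of the stressed heart, so its shares describe known genes. A match describes the letters in the window and nothing about binding.

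Genes of Z-disc, M-band and linker proteins made up most of the sarcomere genes that were higher in KO at 10 weeks, while the ventricular light chains and cardiac troponins were not called higher. Of 29 sarcomere and Z-disc genes, 20 were higher and 1 lower, with a median log2 fold change of 0.87, and the same counts were found without KO replicate 1. Myot, which encodes myotilin of the Z-disc, was at 32.8, 39.5 and 33.3 CPM in WT and 429.6, 486 and 308 CPM in KO (log2 3.53, SE 0.26, adjusted p = 6.6e-08). Synpo2l, an actin-bundling Z-disc protein, was at 189, 213 and 174 CPM in WT and 1964, 2854 and 963 CPM in KO (log2 3.33, SE 0.48, adjusted p = 0.00018). Flnc, muscle filamin, was at 644, 708 and 573 CPM in WT and 7119.7, 6940.5 and 1828 CPM in KO (log2 3.04, SE 0.47, adjusted p = 0.00032). All KO values of these 3 genes lay above the WT values, with replicate 3 lowest in each. Tcap, which encodes the titin cap protein telethonin, a binding partner of MLP, was at 475, 587 and 699 CPM in WT and 1552, 1710.5 and 2414 CPM in KO (log2 1.69, SE 0.20, adjusted p = 6.6e-06), with replicate 3 the highest. Smaller increases were seen in Des, the intermediate filament desmin (log2 1.41, SE 0.16), Nrap, an actin-anchoring protein of new myofibrils (log2 1.74, SE 0.18), Cryab, the small heat shock protein alphaB-crystallin (log2 1.72, SE 0.21), Lmod2, which lengthens thin filaments (log2 1.47, SE 0.16), Myom2 of the M-band (log2 1.28, SE 0.13), Actn2, the Z-disc crosslinker alpha-actinin (log2 1.07, SE 0.13), Mybpc3 (log2 0.91, SE 0.13) and the giant spring Ttn (log2 0.73, SE 0.15). Tnni3, cardiac troponin I, was the member called lower, at 3288, 3469.6 and 3847 CPM in WT and 2234, 2448 and 2266 CPM in KO (log2 -0.61, SE 0.12, adjusted p = 0.00055). Myl2, Myl3, Tnnt2, Tnnc1 and Tpm1 did not pass, with log2 fold changes between -0.25 and 0.31.

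At the cell junctions and costameres, which tie the sarcomere to the membrane and to the next cell, changes were smaller and went both ways. Of 27 genes 10 were higher and 4 lower (median log2 0.18), beside 14.6% and 14.7% of all genes. Without KO replicate 2 the counts were 7 and 2. The lower calls were 2 as well without KO replicate 1, KO replicate 3, WT replicate 1 or WT replicate 3, with 8 to 11 higher. Pkp2, the desmosomal plakophilin, was at 166, 187 and 162 CPM in WT and 373, 447 and 375 CPM in KO (log2 1.21, SE 0.13, adjusted p = 6.3e-07). Tln1, talin of the integrin link (log2 0.94, SE 0.13), Dsp, desmoplakin (log2 0.82, SE 0.13), Vcl, vinculin (log2 0.78, SE 0.13), and Itgb1, integrin beta 1 (log2 0.78, SE 0.14), were higher too. Dsg2, the desmosomal cadherin, was at 90.0, 91.3 and 80.6 CPM in WT and 63.6, 49.1 and 49.8 CPM in KO (log2 -0.69, SE 0.11, adjusted p = 5.4e-05). Gja1, which encodes the gap junction protein connexin 43, was at 541, 487 and 528 CPM in WT and 281, 427 and 434 CPM in KO (log2 -0.45, SE 0.16, adjusted p = 0.035), a call lost without KO replicate 1 (adjusted p = 0.25), WT replicate 1 or WT replicate 3.

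Most collagen and matricellular genes were higher in KO. Of 17 collagen genes 13 were higher and 1 lower (median log2 0.62), with the same counts without KO replicate 1. Col1a1, fibrillar collagen I, was at 117, 126 and 101 CPM in WT and 214, 258 and 236 CPM in KO (log2 1.05, SE 0.21, adjusted p = 0.00097). Col8a1, a short-chain collagen, was at 11.0, 9.97 and 7.09 CPM in WT and 56.1, 58.8 and 31.7 CPM in KO (log2 2.38, SE 0.44, adjusted p = 0.0012). Col4a1 and Col4a2 of the basement membrane were higher as well, with a log2 fold change of 0.95 (SE 0.14) for the first and 0.94 (SE 0.13) for the second. Col3a1, the other main fibrillar collagen of the heart, was at 248, 212 and 203 CPM in WT and 257, 279.9 and 236 CPM in KO (log2 0.22, adjusted p = 0.33), and its groups overlapped.

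Of 40 matricellular and matrix-modifying genes 26 were higher and 2 lower (median log2 0.89), and 23 and 2 without KO replicate 1. Ccn2, the connective tissue growth factor, was at 59.3, 77.1 and 51.2 CPM in WT and 2704, 2313 and 362 CPM in KO (log2 4.84, SE 0.80, adjusted p = 0.00058). Replicates 1 and 2 were high and replicate 3 lay between them and WT. Tgfb2, a TGF-beta ligand, was at 8.83, 10.8 and 9.88 CPM in WT and 197, 263 and 61.5 CPM in KO (log2 4.14, SE 0.61, adjusted p = 0.00024), again with replicate 3 the lowest KO library. Cilp, a matrix protein of cardiac fibroblasts, was at 8.43, 7.67 and 3.78 CPM in WT and 54.0, 93.9 and 62.7 CPM in KO (log2 3.40, SE 0.40, adjusted p = 2.2e-05). Adamts8, a secreted metalloprotease, was at 1.48, 1.57 and 0.755 CPM in WT and 87.1, 35.1 and 10.9 CPM in KO (log2 5.10, SE 0.84, adjusted p = 0.00057). Bgn, the proteoglycan biglycan, was at 140.1, 134 and 113 CPM in WT and 381, 443 and 409 CPM in KO (log2 1.67, SE 0.15, adjusted p = 4.5e-08), with little spread in either group. Timp1, an inhibitor of matrix proteases (log2 3.40, SE 0.58), Thbs4, a thrombospondin induced by load (log2 2.86, SE 0.42), Ltbp2, which binds elastic fibres (log2 3.08, SE 0.52), Mfap4 (log2 2.15, SE 0.21), Lox, a crosslinking oxidase (log2 1.90, SE 0.36), and Tgfb1 (log2 0.50, SE 0.11) were higher as well. Postn, periostin of activated fibroblasts, was at 17.95, 18.8 and 11.0 CPM in WT and 46.2, 48.5 and 25.2 CPM in KO and lost its call without WT replicate 1, WT replicate 3, KO replicate 1 or KO replicate 2 (adjusted p up to 0.088). Thbs2, a further thrombospondin, fell by 1.02 (SE 0.20). Fibroblast markers were called in 5 of 13 higher and 1 lower, beside 14.6% and 14.7% of all genes. Their summed level was 2120 to 2335 CPM in WT and 2536 to 2880.5 CPM in KO. The list's Meox1, a transcription factor of activated fibroblasts (log2 1.82, SE 0.17), rose and Dpt, dermatopontin of resting fibroblasts (log2 -0.73, SE 0.13), fell. In whole tissue, fewer or more cells of a type and less or more RNA per cell cannot be told apart.

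**Figure D3:**
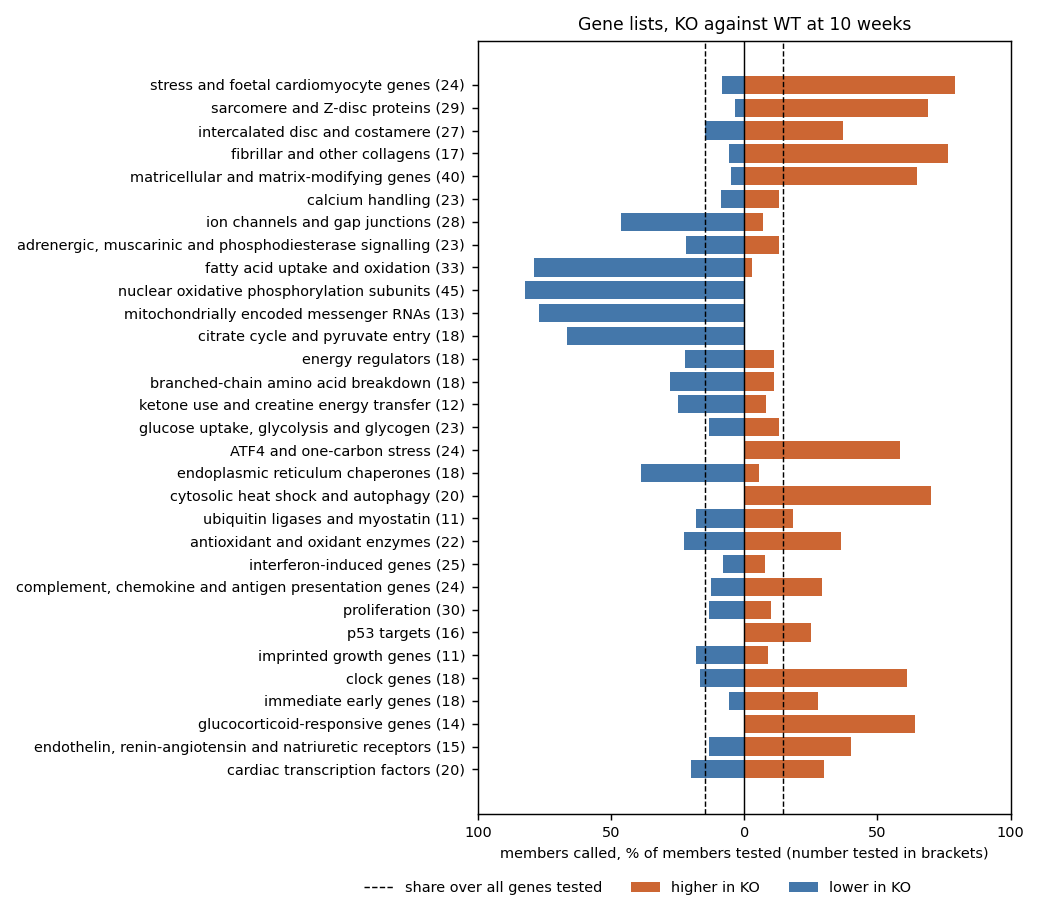
Share of the tested members of each gene list called higher (orange, to the right) or lower (blue, to the left) in KO at 10 weeks, with the number tested in brackets and dashed lines at the shares over all genes, 14.6% higher and 14.7% lower. Bars pass far to the right for stress, sarcomere, collagen, matricellular, ATF4, heat shock, clock and glucocorticoid lists, and far to the left for fatty acid, oxidative phosphorylation, mitochondrially encoded, citrate cycle and ion channel lists.

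Most calls among excitability genes were decreases, including several potassium channels, which end the action potential. Of 28 ion channel and gap junction genes 13 were lower and 2 higher (median log2 -0.55), and the counts were the same without KO replicate 1. Kcne1, a subunit that slows the delayed rectifier, was at 9.81, 13.4 and 7.84 CPM in WT and 1.26, 2.30 and 1.46 CPM in KO (log2 -2.62, SE 0.33, adjusted p = 1.3e-05). Kcnd2, a pore of the transient outward current, was at 27.2, 23.1 and 22.95 CPM in WT and 10.6, 9.07 and 7.65 CPM in KO (log2 -1.43, SE 0.19, adjusted p = 7.5e-06). Kcnh2, the rapid delayed rectifier, was at 111, 129 and 112 CPM in WT and 46.0, 19.9 and 59.7 CPM in KO (log2 -1.49, SE 0.27, adjusted p = 0.00079). KO libraries lay below WT in all 3. Kcnj11, the pore of the ATP-sensitive channel, was at 190.1, 228 and 221 CPM in WT and 73.7, 102 and 139 CPM in KO (log2 -1.02, SE 0.17, adjusted p = 0.00011). The pacemaker channels Hcn2 and Hcn4 fell by 1.75 (SE 0.32) and 1.07 (SE 0.17). Among conduction system markers 3 of 8 tested were lower and 2 higher, beside 14.7% and 14.6% of all genes. Their summed levels were 115 to 150.3 CPM in WT and 112 to 149.6 CPM in KO, with Isl1 at 0 counts. Those lower were Hcn4, Cntn2, a contactin of Purkinje cells (log2 -2.501, SE 0.46), and Tbx3, a T-box repressor of the conduction system, at 20.5, 21.8 and 22.95 CPM in WT and 11.1, 7.68 and 9.51 CPM in KO (log2 -1.21, SE 0.18, adjusted p = 3.5e-05). Hcn4 belongs to both the channel and the conduction list, and the part of conduction tissue in the channel result was not tested.

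Calcium handling genes changed in few members. Of 23 genes 3 were higher and 2 lower (median log2 0.12), beside 14.6% and 14.7% of all genes. The counts were 2 and 0 without WT replicate 3 and also without KO replicate 2, and 5 and 3 without KO replicate 3. Atp2a2, the calcium pump SERCA2a of the sarcoplasmic reticulum, was at 17151, 16604 and 17684 CPM in WT and 13840.0, 11831 and 12971 CPM in KO (log2 -0.41, SE 0.12, adjusted p = 0.012). The groups did not overlap, yet the call was lost without KO replicate 2 (adjusted p = 0.081) or WT replicate 3. Its inhibitor phospholamban, Pln, was at 3608, 3801 and 3582 CPM in WT and 2940.3, 3256 and 3483 CPM in KO (log2 -0.18, adjusted p = 0.30), and the release channel Ryr2 at 1865, 1839 and 1557 CPM in WT and 2531, 2198 and 1924 CPM in KO (log2 0.34, adjusted p = 0.053). Neither passed. Casq1, the skeletal calsequestrin, was at 50.1, 65.1 and 61.0 CPM in WT and 167, 159 and 138 CPM in KO (log2 1.40, SE 0.19, adjusted p = 3.0e-05), and the cardiac Casq2 rose by 0.46 (SE 0.12).

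Alpha-1 adrenergic receptors were lower in KO and the beta-1 receptor did not pass. Adra1a was at 23.8, 27.9 and 21.2 CPM in WT and 5.82, 2.90 and 5.66 CPM in KO (log2 -2.34, SE 0.26, adjusted p = 7.3e-07), and Adra1b at 58.0, 66.3 and 72.8 CPM in WT and 23.4, 23.3 and 27.3 CPM in KO (log2 -1.41, SE 0.13, adjusted p = 8.7e-08). Adrb1 was at 32.3, 32.1 and 38.0 CPM in WT and 16.8, 25.3 and 32.8 CPM in KO (log2 -0.45, SE 0.30, adjusted p = 0.30), with overlapping groups. Over the list of adrenergic, muscarinic and phosphodiesterase genes 5 of 23 were lower and 3 higher, beside 14.7% and 14.6% of all genes. Rgs2 and Rgs4, which turn off G-protein signals, fell by 1.11 (SE 0.20) and 1.20 (SE 0.17). Prkar1a, a regulatory subunit of protein kinase A, rose by 1.16 (SE 0.12), and Grk5, a receptor kinase, by 0.86 (SE 0.17).

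Among vasoactive and natriuretic genes, 6 of 15 tested were higher and 2 lower, beside 14.6% and 14.7% of all genes. Edn3, which encodes endothelin 3, was at 8.83, 4.76 and 7.03 CPM in WT and 56.1, 61.6 and 46.0 CPM in KO (log2 2.98, SE 0.39, adjusted p = 4.6e-05). Npr3, the clearance receptor of natriuretic peptides, was at 13.2, 14.0 and 10.6 CPM in WT and 75.8, 59.5 and 38.3 CPM in KO (log2 2.20, SE 0.23, adjusted p = 1.7e-06). Ace, the angiotensin-converting enzyme, was at 60.3, 56.0 and 64.2 CPM in WT and 134, 142 and 143 CPM in KO (log2 1.21, SE 0.15, adjusted p = 2.2e-06), and Agt, angiotensinogen, at 1.58, 2.02 and 1.63 CPM in WT and 6.52, 10.1 and 8.29 CPM in KO (log2 2.25, SE 0.41, adjusted p = 0.00045). The angiotensin receptor gene Agtr1a fell by 0.80 (SE 0.14) and Mme, neprilysin, which breaks down natriuretic peptides, by 1.87 (SE 0.25). Groups did not overlap for these 6 genes.

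Genes of fatty acid oxidation were lower in KO almost throughout. Of 33 genes 26 were lower and 1 higher (median log2 -0.68), and 27 and 1 without KO replicate 1. Acaa2, the thiolase of the last step of beta-oxidation, was at 932, 999 and 1088 CPM in WT and 445, 407 and 442 CPM in KO (log2 -1.22, SE 0.11, adjusted p = 6.9e-08). Acadm, the medium-chain dehydrogenase of the first step, was at 1487, 1575 and 1687 CPM in WT and 876, 852 and 835 CPM in KO (log2 -0.89, SE 0.11, adjusted p = 2.0e-06). Hadh, the third enzyme of the cycle, was at 590.0, 614 and 708 CPM in WT and 331, 330.3 and 357 CPM in KO (log2 -0.91, SE 0.11, adjusted p = 2.3e-06). The spread within groups was small for all 3. The largest decreases of the list were those of a pair of targets of the lipid-sensing PPAR receptors, with Acot1, an acyl-CoA thioesterase, at 51.8, 32.8 and 35.4 CPM in WT and 5.26, 2.06 and 3.62 CPM in KO (log2 -3.47, SE 0.35, adjusted p = 1.8e-06) and Ucp3, a mitochondrial carrier induced by fatty acids, at 68.4, 58.5 and 93.0 CPM in WT and 18.3, 4.71 and 10.5 CPM in KO (log2 -2.72, SE 0.40, adjusted p = 0.00017). Acot1 and its neighbour Acot2 are close paralogs, so reads may be split between them. Cpt2, of carnitine-dependent import (log2 -0.83, SE 0.14), Slc27a1, a fatty acid transporter (log2 -0.86, SE 0.14), Plin5, which coats lipid droplets (log2 -1.08, SE 0.18), and Etfb, the electron carrier subunit (log2 -0.97, SE 0.15), fell too. Of other genes of uptake and entry, Cd36, Fabp3, Lpl and Cpt1b did not pass, with log2 fold changes of -0.28, -0.07, -0.32 and -0.26. Pdk4, a kinase that blocks pyruvate oxidation, was at 726, 547 and 814 CPM in WT and 1363, 749 and 433 CPM in KO, with KO replicates on both sides of WT.

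Subunits of the respiratory chain were lower in most genes of the list. Of 45 nuclear-encoded subunits 37 were lower and none higher (median log2 -0.38). The count was 19 without KO replicate 1 and 18 without WT replicate 3. Cox7a1, the muscle isoform of a cytochrome oxidase subunit, was at 689, 757 and 769 CPM in WT and 415, 397 and 401 CPM in KO (log2 -0.87, SE 0.15, adjusted p = 0.00021). Ndufa1 of complex I was at 200.3, 194 and 204 CPM in WT and 119, 105 and 78.0 CPM in KO (log2 -0.99, SE 0.17, adjusted p = 0.00026). Sdha and Sdhc of complex II fell by 0.56 (SE 0.09) and 0.56 (SE 0.09). KO values lay below WT in all 4 genes. Of 13 mitochondrially encoded messenger RNAs 10 were lower (median log2 -0.75), and 6 without KO replicate 2. mt-Nd1 was at 18385, 16725 and 18890.0 CPM in WT and 12444, 9477 and 7861 CPM in KO (log2 -0.86, SE 0.18, adjusted p = 0.0014), and mt-Co1 at 72475, 65856 and 73558 CPM in WT and 52380.0, 50447 and 43166 CPM in KO (log2 -0.54, SE 0.14, adjusted p = 0.0048). KO replicate 3 held the lowest value of both.

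The citrate cycle, which feeds that chain, was lower in 12 of 18 genes and higher in none (median log2 -0.38). Idh2, the NADP-linked mitochondrial isocitrate dehydrogenase, was at 2285, 2622 and 2677 CPM in WT and 1033, 1105 and 1222 CPM in KO (log2 -1.17, SE 0.11, adjusted p = 7.2e-08). Sucla2, a subunit of succinyl-CoA ligase, was at 574, 541 and 602 CPM in WT and 339, 301 and 262 CPM in KO (log2 -0.93, SE 0.12, adjusted p = 5.5e-06), and Mpc2, of the mitochondrial pyruvate carrier, at 275, 280.0 and 318 CPM in WT and 179.7, 167 and 158 CPM in KO (log2 -0.79, SE 0.12, adjusted p = 3.6e-05). The groups were separate for each. Among regulators of these genes, Ppargc1a, the coactivator PGC-1alpha, was at 75.4, 64.2 and 61.9 CPM in WT and 64.2, 57.7 and 45.5 CPM in KO (log2 -0.27, adjusted p = 0.31) and did not pass. The nuclear receptor genes Esrra and Rxrg fell by 0.56 (SE 0.13) and 1.32 (SE 0.17), and Klf15, a metabolic transcription factor that glucocorticoids induce, rose by 0.84 (SE 0.14). Over the 18 energy regulators 4 were lower and 2 higher, beside 14.7% and 14.6% of all genes. The counts were 3 and 1 without KO replicate 2 or any 1 WT replicate.

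Genes for other fuels went both ways. Slc2a1, the basal glucose transporter GLUT1, was at 9.17, 11.6 and 7.09 CPM in WT and 40.5, 63.5 and 33.5 CPM in KO (log2 2.30, SE 0.21, adjusted p = 1.2e-07), while Slc2a4, the insulin-responsive GLUT4 of adult muscle, was at 394, 431 and 454 CPM in WT and 240.2, 259.8 and 344 CPM in KO (log2 -0.60, SE 0.12, adjusted p = 0.00092). Pfkp, the platelet isoform of phosphofructokinase, rose from 68.6, 65.3 and 63.2 CPM to 166, 254 and 160.2 CPM, and Pfkfb1, which sets the activator of that enzyme, fell from 4.88, 3.70 and 5.69 CPM to 0.772, 0.423 and 0.875 CPM. Glycolysis and glucose uptake as a list had 3 higher and 3 lower of 23, beside 14.6% and 14.7% of all genes, and 5 and 3 without KO replicate 1. Bdh1, the enzyme that lets mitochondria use the ketone beta-hydroxybutyrate, was at 102, 83.8 and 56.2 CPM in WT and 364, 425 and 483 CPM in KO (log2 2.39, SE 0.33, adjusted p = 8.0e-05). Each KO value was above each WT value. Bcat2, the first enzyme of branched-chain amino acid breakdown, was at 85.6, 96.0 and 99.5 CPM in WT and 176, 212 and 249 CPM in KO (log2 1.18, SE 0.12, adjusted p = 2.1e-07), against the direction of the later enzymes Bckdhb (log2 -0.48) and Aldh6a1 (log2 -0.36), the latter with a call lost without KO replicate 2 (adjusted p = 0.080). The branched-chain list had 2 higher and 5 lower of 18, beside 14.6% and 14.7% of all genes. It had 1 to 3 lower when WT replicate 1, WT replicate 3, KO replicate 2 or KO replicate 3 was left out. Without KO replicate 1 it had 1 higher and 5 lower. Ckm, muscle creatine kinase, which buffers ATP, was at 2507, 2680.0 and 2824 CPM in WT and 1590.0, 1831 and 1794 CPM in KO (log2 -0.62, SE 0.12, adjusted p = 0.00035).

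Genes of the ATF4 response, which makes amino acids, one-carbon units and their transporters when mitochondria or protein synthesis are under stress, were higher in KO. Of 24 tested 14 were higher and none lower (median log2 0.97), and 13 and none without KO replicate 1. Atf4 itself was at 81.4, 88.6 and 91.6 CPM in WT and 179.8, 186 and 139.6 CPM in KO (log2 0.95, SE 0.10, adjusted p = 6.8e-07), and the related Atf5 at 49.5, 51.8 and 50.5 CPM in WT and 102, 126 and 114 CPM in KO (log2 1.17, SE 0.13, adjusted p = 6.0e-07). Mthfd2, a mitochondrial folate enzyme, was at 2.42, 2.18 and 2.09 CPM in WT and 24.6, 36.8 and 27.7 CPM in KO (log2 3.73, SE 0.30, adjusted p = 3.0e-08). All KO values lay well above WT. Slc7a5, the large neutral amino acid transporter, was at 2.66, 3.92 and 3.43 CPM in WT and 20.2, 18.3 and 18.1 CPM in KO (log2 2.501, SE 0.18, adjusted p = 1.8e-09), and its partner chain Slc3a2 rose by 0.77 (SE 0.10). Asns, asparagine synthetase, was at 5.87, 4.31 and 4.71 CPM in WT and 19.3, 18.6 and 18.97 CPM in KO (log2 1.93, SE 0.25, adjusted p = 6.6e-06). Phgdh, which starts serine synthesis (log2 1.92, SE 0.32), Pycr1, which ends proline synthesis (log2 1.76, SE 0.33), and Aldh18a1, which starts it (log2 1.20, SE 0.20), rose as well. Trib3, a pseudokinase induced late in the response, was at 2.66, 3.08 and 2.499 CPM in WT and 5.33, 2.96 and 7.76 CPM in KO and did not pass.

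The promoters of Asns and Pycr1 are given because both genes rose and hold the letters TGATGNAA, the shape of the site that ATF4 binds with C/EBP partners. They lie at chr6:7693160-7693459 (minus strand) and chr11:120643699-120643998 (minus strand) of GRCm38.p6 (RefSeq), and capitals mark the match.
Asns: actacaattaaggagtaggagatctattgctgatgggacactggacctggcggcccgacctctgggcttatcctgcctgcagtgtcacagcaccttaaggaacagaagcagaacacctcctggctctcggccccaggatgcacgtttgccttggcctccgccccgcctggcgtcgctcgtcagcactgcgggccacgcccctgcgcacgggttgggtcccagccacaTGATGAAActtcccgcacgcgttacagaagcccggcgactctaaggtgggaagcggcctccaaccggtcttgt
Pycr1: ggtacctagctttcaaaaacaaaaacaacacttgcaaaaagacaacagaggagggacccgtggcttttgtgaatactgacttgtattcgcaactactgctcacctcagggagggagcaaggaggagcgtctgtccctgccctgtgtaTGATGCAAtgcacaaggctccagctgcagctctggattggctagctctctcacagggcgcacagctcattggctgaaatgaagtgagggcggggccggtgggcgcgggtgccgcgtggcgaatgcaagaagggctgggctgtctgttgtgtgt
TGATGNAA on either strand was found in 7 of 25 windows of this list (28%), which covered 21 of its genes, and in 2.32% of all windows. The 7 genes were Asns, Atf3, Chac1, Pycr1, Slc7a11, Trib3 and Vldlr, of which the last 3 did not pass at 10 weeks. The call of Atf3 was lost in 5 of the 6 fits without 1 library (adjusted p up to 0.088; it held without KO replicate 3) and that of Chac1 without WT replicate 1 (adjusted p = 0.053) or KO replicate 3. The list was drawn up from genes known to respond to ATF4, so the share describes known targets.

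Chaperone calls in the cytosol were increases and most of those in the endoplasmic reticulum were decreases. Of 20 cytosolic heat shock and autophagy genes 14 were higher and none lower (median log2 0.94), and 13 and none without KO replicate 1. Hspb7, a small heat shock protein of the heart, was at 2310.2, 2658 and 2279.8 CPM in WT and 6799, 9176 and 5558 CPM in KO (log2 1.57, SE 0.17, adjusted p = 1.0e-06). Gabarapl1, which coats autophagosomes, was at 71.9, 82.1 and 80.4 CPM in WT and 209, 223 and 226 CPM in KO (log2 1.49, SE 0.11, adjusted p = 3.2e-09), with hardly any spread in KO. Sqstm1, the cargo receptor p62, was at 320.4, 384 and 385 CPM in WT and 578, 752 and 789 CPM in KO (log2 0.96, SE 0.12, adjusted p = 3.1e-06). Hspb6 (log2 1.42, SE 0.15), Hspb1 (log2 2.02, SE 0.39), Hspa8 (log2 1.64, SE 0.41) and Bnip3, a mitophagy receptor (log2 0.82, SE 0.13), rose too. The inducible Hspa1b was at 6.41, 11.9 and 21.3 CPM in WT and 417, 401 and 27.7 CPM in KO (log2 4.42, SE 1.06, adjusted p = 0.0074), high in replicates 1 and 2 only, and its near-identical copy Hspa1a can share its reads. Of 18 endoplasmic reticulum chaperones 7 were lower and 1 higher (median log2 -0.39), beside 14.7% and 14.6% of all genes. The lower calls were 2 to 4 when WT replicate 1, WT replicate 2, KO replicate 2 or KO replicate 3 was left out. Dnajc3, which relieves the brake on translation, was at 67.0, 70.3 and 61.6 CPM in WT and 42.2, 30.8 and 25.3 CPM in KO (log2 -1.02, SE 0.16, adjusted p = 7.3e-05). Manf, a secreted stress protein of this compartment, was at 84.5, 85.4 and 83.3 CPM in WT and 50.3, 40.5 and 43.7 CPM in KO (log2 -0.91, SE 0.24, adjusted p = 0.0099). Hspa5, the chaperone BiP, was at 788, 781 and 689 CPM in WT and 652, 546 and 449.8 CPM in KO (adjusted p = 0.049), a call lost in 5 of the 6 fits without 1 library (adjusted p up to 0.20; it held without KO replicate 1).

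Glucocorticoid-responsive genes were higher in 9 of 14 and lower in none (median log2 1.06), beside 14.6% and 14.7% of all genes. Without KO replicate 1 the counts were 8 and 1. Per1, reported below, belongs to both this list and the clock list. Mt2, a metallothionein that binds zinc, was at 1.92, 1.90 and 1.34 CPM in WT and 47.7, 34.4 and 34.0 CPM in KO (log2 4.48, SE 0.27, adjusted p = 4.2e-10). Fkbp5, a co-chaperone that dampens the glucocorticoid receptor, was at 16.9, 16.6 and 20.6 CPM in WT and 100.2, 74.2 and 66.1 CPM in KO (log2 2.15, SE 0.20, adjusted p = 1.4e-07). Zbtb16, a zinc finger gene induced by the receptor, was at 42.4, 29.7 and 49.1 CPM in WT and 192, 129 and 70.6 CPM in KO (log2 1.69, SE 0.31, adjusted p = 0.00081). KO replicate 1 was highest in 8 of the 9 called members, and each KO value of these 3 genes was above each WT value. Cdkn1a, the cell cycle inhibitor p21, which p53 induces too, was at 38.9, 37.1 and 38.3 CPM in WT and 119, 107 and 73.6 CPM in KO (log2 1.39, SE 0.21, adjusted p = 8.6e-05), and Mt1 at 58.9, 64.9 and 51.9 CPM in WT and 149, 136 and 143 CPM in KO (log2 1.28, SE 0.18, adjusted p = 1.9e-05).

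Clock genes, whose levels turn over with the time of day, were higher in 11 of 18 and lower in 3 (median log2 1.17), with the same counts without KO replicate 1. Nr1d1, which encodes the repressor REV-ERBalpha, was at 30.2, 32.0 and 29.3 CPM in WT and 127, 235 and 156 CPM in KO (log2 2.501, SE 0.25, adjusted p = 2.1e-06). Per1 was at 26.7, 24.5 and 32.1 CPM in WT and 123, 89.1 and 102 CPM in KO (log2 1.92, SE 0.17, adjusted p = 5.9e-08). Dbp, a clock output factor, was at 4.39, 4.48 and 9.41 CPM in WT and 31.8, 56.5 and 93.3 CPM in KO (log2 3.32, SE 0.56, adjusted p = 0.00062). Cry1 went down, at 27.1, 23.7 and 25.0 CPM in WT and 15.2, 10.5 and 9.22 CPM in KO (log2 -1.12, SE 0.19, adjusted p = 0.00011), as did Npas2, a partner of BMAL1 (log2 -1.26, SE 0.26). Arntl, which encodes BMAL1, was at 37.7, 34.0 and 27.4 CPM in WT and 17.05, 26.7 and 11.4 CPM in KO and did not pass (log2 -0.85, SE 0.34, adjusted p = 0.076). KO values lay above WT for Nr1d1, Per1 and Dbp and below for Cry1. The labels give no hour of collection, so its part in these results and in those of the glucocorticoid list was not tested.

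The promoter of Per1 at chr11:69098699-69098998 (plus strand, GRCm38.p6, RefSeq) shows the E-box CACGTG, the letters that CLOCK and BMAL1 read, in capitals.
Per1: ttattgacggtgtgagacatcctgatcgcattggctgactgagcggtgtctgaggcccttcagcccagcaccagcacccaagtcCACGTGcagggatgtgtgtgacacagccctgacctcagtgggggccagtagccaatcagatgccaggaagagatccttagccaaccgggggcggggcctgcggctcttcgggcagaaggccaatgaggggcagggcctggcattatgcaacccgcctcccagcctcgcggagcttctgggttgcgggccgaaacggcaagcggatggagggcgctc
CACGTG was found in 6 of 20 windows of the clock list (30%), which covered 15 of its genes, and in 9.63% of all windows. The genes were Bhlhe41, Ciart, Cry1, Per1 and Tef. Of these Cry1 fell and the others rose. CACGTG was also in 22.7% of windows of the glucocorticoid list and 14.3% of the cytosolic heat shock and autophagy list. It was in 9.38% of windows of the stress list and 8% of the ATF4 list. The clock list was drawn up from known clock genes, so its share describes known genes.

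Mesothelial markers, genes of the epithelial sheet over the heart, were higher in KO. Of 12 genes 10 were higher and none lower (median log2 2.5), with the same counts without KO replicate 1. Their summed level was 17.1 to 27.0 CPM in WT and 48.1 to 114 CPM in KO. Upk3b, a uroplakin of mesothelium, was at 2.91, 4.76 and 2.09 CPM in WT and 31.1, 19.8 and 11.8 CPM in KO (log2 2.68, SE 0.69, adjusted p = 0.011), and Krt18, a keratin of simple epithelia, at 0.345, 1.68 and 0.523 CPM in WT and 6.74, 6.17 and 4.32 CPM in KO (log2 2.76, SE 0.42, adjusted p = 3.7e-05). Tbx18, a T-box factor of epicardium, was at 1.13, 1.06 and 0.814 CPM in WT and 6.10, 4.96 and 3.56 CPM in KO (log2 2.26, SE 0.27, adjusted p = 1.7e-06). All 10 called genes were highest in replicate 1 and lowest in replicate 3. Wt1, a transcription factor of the epicardium, was at 6.46, 6.33 and 5.17 CPM in WT and 11.4, 5.62 and 7.12 CPM in KO and did not pass. Aldh1a2, a retinoic acid-making enzyme, was at 6.56, 5.43 and 4.18 CPM in WT and 7.998, 11.8 and 5.95 CPM in KO and did not pass. How much of the outer wall each sample held is not given in the labels, and its part in this result was not tested.

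Endothelial markers were lower in 4 of 14 and higher in 1, and in 2 and 1 without WT replicate 1, WT replicate 3 or KO replicate 2. Over all genes 14.7% were lower and 14.6% higher, and these shares stand beside every list count of this paragraph. Their summed level was 1810 to 2191 CPM in WT and 1541 to 1786 CPM in KO. Kdr, the receptor VEGFR2, was at 269, 209 and 207 CPM in WT and 122, 142 and 138 CPM in KO (log2 -0.77, SE 0.18, adjusted p = 0.0029), and Tie1 at 177, 158 and 170.4 CPM in WT and 112, 110.0 and 129 CPM in KO (log2 -0.53, SE 0.11, adjusted p = 0.00079). Vwf, von Willebrand factor, was higher (log2 0.83, SE 0.19). Pericyte and smooth muscle markers were split, 4 higher and 4 lower of 12, at summed levels of 3485 to 3542 CPM in WT and 5512 to 7602 CPM in KO. They were 2 and 2 without WT replicate 1, and 2 and 3 without WT replicate 3. The list includes Des, reported above as higher in KO. Only 4 of the 12 had a positive fold change (median log2 -0.16), so the summed level does not stand for most members. Apart from Acta2, Abcc9, a channel subunit of pericytes and cardiomyocytes, fell by 0.78 (SE 0.12), and Cspg4, the pericyte proteoglycan NG2, was at 22.0, 19.3 and 15.4 CPM in WT and 57.9, 138 and 87.1 CPM in KO (log2 2.32, SE 0.24, adjusted p = 1.7e-06). Macrophage markers were lower in 4 of 14 and higher in 1, at summed levels of 203 to 217 CPM in WT and 163 to 196 CPM in KO. The lower calls were 2 without WT replicate 1, 1 without WT replicate 2 and 2 without KO replicate 2. Dbh, the noradrenaline-making enzyme of sympathetic nerves, was at 5.67, 7.90 and 9.59 CPM in WT and 0.281, 0.484 and 0.409 CPM in KO (log2 -4.26, SE 0.34, adjusted p = 6.0e-09), with all KO values under those of WT. The nerve and Schwann cell list had 2 of 8 lower and none higher, and 1 lower without KO replicate 2, WT replicate 1 or WT replicate 2. Yet 5 of the 8 had a positive fold change (median log2 0.18, and -0.35 without KO replicate 1), so Dbh does not stand for most members. None of 6 red cell genes and none of the 2 neutrophil genes tested passed, and the neutrophil genes Ly6g, Elane and Retnlg were at 0 counts. Igkc, an immunoglobulin chain, was the member called among 9 B cell genes and lost its call without WT replicate 1 or KO replicate 1. Of 7 fast skeletal muscle genes 3 were higher, Myh8, Mylk2 and Neb, the first 2 at means under 1 CPM in both genotypes. With 1 library left out at a time, Myh8 passed in 1 of 6 fits, Neb in 3 and Mylk2 in 4, and the list had 1 higher without KO replicate 1 and none without WT replicate 3.

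Among cardiac transcription factors 6 of 20 tested were higher and 4 lower, beside 14.6% and 14.7% of all genes. The counts were 5 and 2 without WT replicate 3. Tead1, which reads the CATTCC letters, was at 149.8, 153 and 123 CPM in WT and 217, 242 and 218 CPM in KO (log2 0.67, SE 0.11, adjusted p = 9.4e-05). Tbx20, a T-box factor of cardiomyocytes, rose by 0.97 (SE 0.14), and Nfatc2, a factor that calcineurin activates, by 1.30 (SE 0.19). Mef2a, a muscle transcription factor, was at 173, 165 and 169.7 CPM in WT and 120.2, 90.5 and 80.4 CPM in KO (log2 -0.80, SE 0.17, adjusted p = 0.00098), and Zfpm2, a cofactor of GATA4, fell by 0.82 (SE 0.14). Groups were separate for all 5.

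Outside the lists, the largest differences included genes that were near 0 in one genotype. Slc6a16, an orphan member of the neurotransmitter transporter family, was at 0, 0.168 and 0.174 CPM in WT and 59.8, 55.2 and 62.7 CPM in KO (log2 9.01, SE 0.33, adjusted p = 2.1e-14). Fgf6, a growth factor known from skeletal muscle, was at 0.789, 1.90 and 1.74 CPM in WT and 85.6, 69.9 and 52.0 CPM in KO (log2 5.56, SE 0.25, adjusted p = 1.8e-12). Psca, a surface antigen first known from prostate, was at 0.148, 0.168 and 0.349 CPM in WT and 34.8, 53.7 and 62.5 CPM in KO (log2 7.81, SE 0.56, adjusted p = 5.3e-08). Lrp8, a lipoprotein receptor family member that binds reelin, was at 0.395, 0.728 and 0.232 CPM in WT and 25.9, 39.8 and 26.5 CPM in KO (log2 6.07, SE 0.31, adjusted p = 5.1e-12). None of the WT libraries came near the KO values. Ces5a, a carboxylesterase gene, had 0 counts in WT and 7.44, 9.55 and 2.16 CPM in KO, at least 116-fold higher against an upper limit of 3 counts over the WT group. Syndig1, Pou3f1, Pak3 and Sprr1a were under 0.5 CPM in every WT library and at 2.04 CPM or more in every KO library.

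In the other direction, Gdpd3, a lysophospholipase D gene, was at 56.0, 54.5 and 54.9 CPM in WT and 0.912, 0.544 and 0.642 CPM in KO (log2 -6.31, SE 0.23, adjusted p = 2.1e-14), and Tmprss13, a membrane serine protease, at 20.9, 15.96 and 18.5 CPM in WT and 0.210, 0 and 0.0584 CPM in KO (log2 -7.68, SE 0.43, adjusted p = 2.5e-11). Gbp2b, a guanylate-binding protein, had 8.58, 7 and 8.19 CPM in WT and 0 counts in KO, at least 127-fold lower on the same limit. Capn11, a calpain, and Guca1b, a guanylate cyclase activator, also had 0 counts in KO and were at least 64.4-fold and 33.5-fold lower. Capn11 was near 0 in younger WT as well, with means of 0.0535, 0.0142 and 4.07 CPM in WT at 3, 6 and 10 weeks. It is among the 17 genes, described below, whose WT level at 10 weeks stood apart. Naalad2, a peptidase gene, was at 9.52, 7.56 and 6.86 CPM in WT and 0.0702, 0.181 and 0 CPM in KO, and Sp110, a nuclear body gene, at 10.8, 7.28 and 7.50 CPM in WT and 0.140, 0 and 0 CPM in KO. In each of these genes every KO library was near or at 0. The rule also named pseudogenes of Ftl2 (Ftl2-ps, log2 9.08), Rps13 (Rps13-ps1, log2 -7.15), Rpl34 (Rpl34-ps1, log2 -6.19) and Rps15a (Rps15a-ps7, log2 -5.53), whose reads may belong to near-identical copies, and Plet1os (log2 9.63), named as the opposite strand of Plet1. The strand setting of the counting is not given in the sources used here, so reads of the pair cannot be told apart. Around Csrp3, within 10 Mb on each side, 69 of 165 genes tested (41.8%) were called and 40 (24.2%) differed by over 2-fold, beside 29.3% and 11.2% of all genes. Over the whole of chromosome 7 the share called was 30.5% of 1276 genes. Kcnj14, reported below, lies in the 10 Mb window (chromosome 7, 45816460 to 45824782), and other genes named in this report may lie in it too. The cause of these local shares, and its part in the results of such genes, was not tested.

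WT at 10 weeks also differed from younger WT in a way that bears on comparisons between ages. In 17 genes every WT value at 10 weeks was at least 8-fold above (5 genes) or below (12 genes) every WT value at 3 and 6 weeks, with 2 CPM or more in the higher libraries, and no gene did so among KO libraries. Ptprn2, a receptor-type phosphatase gene of secretory vesicles, had a mean of 9.11, 16.7 and 0.0164 CPM in WT at 3, 6 and 10 weeks and 0.102, 0.109 and 0.401 CPM in KO. Kcnj14, an inward rectifier, had a mean of 39.0, 62.0 and 0.807 CPM in WT and 1.84, 9.91 and 9.12 CPM in KO. Pygl, liver glycogen phosphorylase, went from 73.4 and 64.6 to 4.11 CPM in WT and stayed between 5.78 and 7.32 CPM in KO. Eps8l1, an actin regulator, was at 0.458, 0.417 and 20.7 CPM in WT and between 0.333 and 0.662 CPM in KO. The labels give the same strain background for all ages, and what sets these WT libraries apart was not tested. Of the 17 genes 12 were among the calls at 10 weeks.

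**Figure D4:**
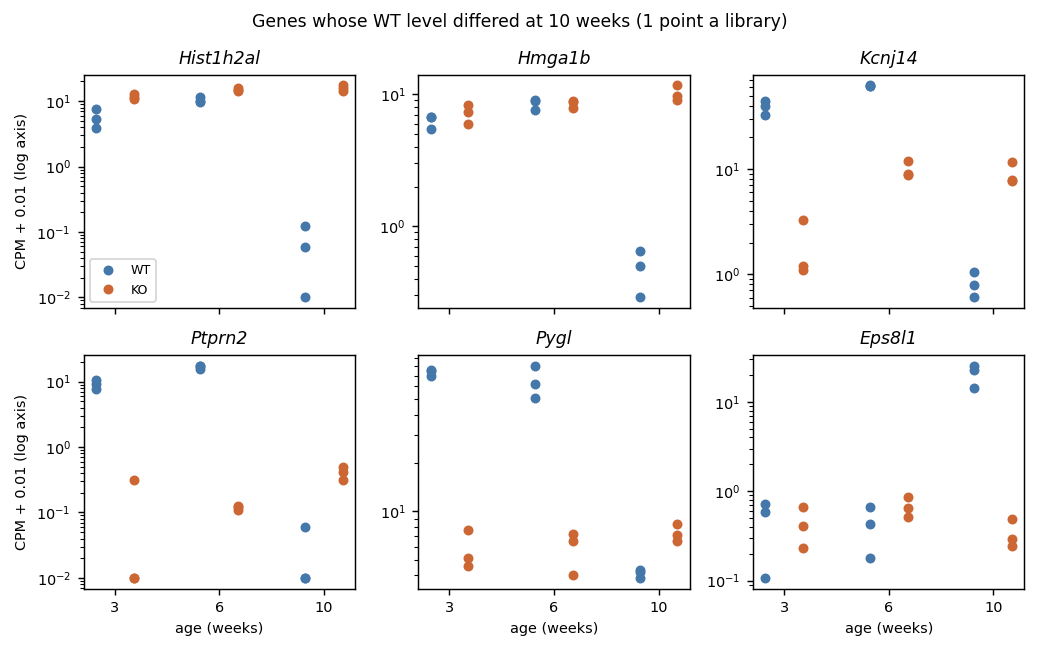
Genes (6 of the 17) whose WT level at 10 weeks stood apart from WT at 3 and 6 weeks, as CPM + 0.01 on a log axis by age in weeks, with 1 point for each library (blue WT, orange KO). In Hist1h2al, Hmga1b, Kcnj14, Ptprn2 and Pygl the 3 WT points at 10 weeks lie at least 8-fold below all younger WT points, and in Eps8l1 at least 8-fold above them. Hist1h2al is annotated as a processed pseudogene.

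Part of the genes called at 10 weeks were also called at the younger ages, where 3751 genes (23.8%) were called at 6 weeks and 2419 (15.3%) at 3 weeks. Of the 4625 genes called at 10 weeks, 2008 were called in the same direction at 6 weeks (43.4% of the 10-week and 53.5% of the 6-week calls) and 72 in the opposite one. For 3 weeks the numbers were 1451 (31.4% and 60.0%) and 51. Direct tests of the difference in the genotype effect called 908 genes (5.75%) for 10 against 6 weeks, 493 with a higher and 415 with a lower effect at 10 weeks. For 10 against 3 weeks they called 909 (5.76%), 445 higher and 464 lower. That last split was 495 and 330 without KO replicate 1 at 10 weeks and 332 and 221 without KO replicate 2 at 10 weeks. These 2 tests share the 10-week libraries. Single libraries moved both counts by over 1.5 times. Without KO replicate 3 at 10 weeks they were 1598 and 1497. Without the 3 KO libraries rich in atrial transcripts, 1 at each age, they were 795 and 789. For 10 against 6 weeks the count was 460 without KO replicate 2 at 6 weeks, 493 and 513 without WT replicates 3 and 1 at 6 weeks, 504 without KO replicate 2 at 10 weeks, and 566, 603 and 591 without WT replicates 1, 2 and 3 at 10 weeks. For 10 against 3 weeks it was 552 and 570 without WT replicates 2 and 1 at 3 weeks, 558 without WT replicate 3 at 10 weeks and 553 without KO replicate 2 at 10 weeks.

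Sarcomere genes had a larger genotype effect at 10 than at 6 weeks in 12 of 29 and a smaller one in none, beside 3.12% and 2.63% of all genes. The count was 6 or 7 without KO replicate 2 or WT replicate 1 at 10 weeks, or KO replicate 2 or WT replicate 3 at 6 weeks. At 3 weeks 18 of the 29 were already higher in KO and 0 lower (median log2 0.52). At 6 weeks 9 were higher and 5 lower (median log2 0.29). Against 3 weeks the effect at 10 weeks was larger in 5 genes and smaller in 0. The log2 fold change of Myh7 was 0.56, 1.40 and 2.94 at 3, 6 and 10 weeks, a difference of 1.54 (SE 0.33, adjusted p = 0.014) from 6 weeks. Tcap went from -0.34 and 0.29 to 1.69 (difference from 6 weeks 1.40, adjusted p = 0.0071), and Lmod2 from 0.43 and 0.15 to 1.47 (difference 1.33, adjusted p = 0.0011). The fold change was the highest of the 3 ages at 10 weeks in each of these genes. KO values of Myh7 and Lmod2 at 10 weeks were all above those at 6 weeks. For Tcap the KO values overlapped, at 1725, 1972 and 1908 CPM at 6 weeks and 1552, 1711 and 2414 CPM at 10 weeks. Its WT values fell from 1628, 1327 and 1644 CPM to 475, 587 and 699 CPM. Myl3, the essential light chain, was at -0.70 at 6 weeks and 0.11 at 10 weeks (difference 0.81, adjusted p = 0.013).

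The ATF4 list had a larger effect at 10 than at 6 weeks in 7 of 24 genes and than at 3 weeks in 8, and a smaller effect in none, beside 3.12% and 2.82% of all genes with a higher effect. Against 6 weeks the count was 2 to 4 without KO replicate 1 or 2 at 6 weeks, or any 1 WT replicate at 6 or 10 weeks. The log2 fold change of Atf4 was 0.28 at 3 weeks, 0.01 at 6 weeks and 0.95 at 10 weeks (difference from 6 weeks 0.94, adjusted p = 0.00049), and that of Atf5 was -0.09, 0.03 and 1.17 (difference 1.14, adjusted p = 0.00050). Mthfd2 was already high at 6 weeks (2.81) but not at 3 weeks (0.08; 10 against 3 weeks, adjusted p = 1.8e-05). In fuel genes, Slc2a1 was at 0.35, 0.19 and 2.30 (difference from 6 weeks 2.11, adjusted p = 0.00019), and Bcat2 at 0.32, -0.27 and 1.18 (difference 1.45, adjusted p = 1.1e-05). KO values of Bcat2 overlapped between 6 weeks (179, 184 and 197 CPM) and 10 weeks (176, 212 and 249 CPM). Its WT values fell from 235, 210 and 233 CPM to 85.6, 96.0 and 99.5 CPM. Between these ages Atf4, Atf5 and Slc2a1 fell in WT and rose in KO. Oxidative phosphorylation genes had a smaller decrease at 10 than at 6 weeks in 8 of 45. None of these calls held when WT replicate 1 or 2 or KO replicate 2 at 10 weeks, WT replicate 1 or 3 at 6 weeks, or KO replicate 2 or 3 at 6 weeks was left out, and 21 genes were called without WT replicate 2 at 6 weeks.

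Glucocorticoid-responsive genes had a higher effect at 10 than at 6 weeks in 8 of 14 and a lower one in none. At 6 weeks 2 were higher and 6 lower in KO, beside 11.0% and 12.8% of all genes. Fkbp5 was at 1.76, -1.14 and 2.15 at 3, 6 and 10 weeks (difference from 6 weeks 3.29, adjusted p = 3.5e-07). Zbtb16 was at 0.40, -2.27 and 1.69 (difference 3.96, adjusted p = 0.00011), and Cdkn1a at 0.88, -1.56 and 1.39 (difference 2.95, adjusted p = 1.2e-05). The 3 genes were lower in KO at 6 weeks and higher at 10 weeks. Agt was at 1.90, -1.30 and 2.25 (difference 3.56, adjusted p = 0.0015).

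Interferon-induced genes, the antiviral set, were mostly higher in KO at the younger ages and mostly did not pass at 10 weeks. They were higher in KO in 18 of 25 at 6 weeks and in 13 at 3 weeks, beside 11.0% and 8.65% of all genes, and at 10 weeks in 2, with 2 lower and a median log2 fold change of -0.04. Without KO replicate 1 the 10-week counts were none higher and 2 lower, and without WT replicate 2 they were 1 and 1. The effect was lower at 10 than at 6 weeks in 10 genes and higher in none, and lower in 5 without KO replicate 2 at 6 weeks and in 6 without WT replicate 1 at 10 weeks. Ifit3 was at 1.19, 1.83 and 0.31 at the 3 ages (difference from 6 weeks -1.52, adjusted p = 0.0051), Irf7, a master regulator of the set, at 1.32, 1.29 and 0.22 (difference -1.07, adjusted p = 0.013, and 0.050 without KO replicate 2 at 6 weeks, where it did not pass), and Rsad2, viperin, at 1.18, 1.56 and -0.18 (difference -1.74, adjusted p = 0.00015). Between 6 and 10 weeks the WT values of these 3 genes rose without overlap. In WT, Rsad2 went from 4.507, 4.358 and 4.985 CPM to 16.72, 15.01 and 11.68 CPM. Its KO values overlapped, at 12.39, 14.67 and 13.85 CPM and 12.63, 11.55 and 14.3 CPM. KO values of Irf7 and Ifit3 were all lower at 10 than at 6 weeks. Irf7 in KO went from 13.48, 18.18 and 14.35 CPM to 12.49, 12.33 and 11.91 CPM. Xaf1, a pro-apoptotic interferon target, was lower in KO at 10 weeks, at 25.1, 21.7 and 21.2 CPM in WT and 7.72, 8.52 and 3.68 CPM in KO (log2 -1.78, SE 0.23, adjusted p = 5.2e-06). Endoplasmic reticulum chaperones were higher in 7 of 18 genes at 3 weeks and lower in none, beside 8.65% and 6.68% of all genes, and had a lower effect at 10 than at 3 weeks in 6. The last count was 2 or 3 without WT replicate 1 or 2 or KO replicate 2 at 10 weeks or WT replicate 1 or 2 at 3 weeks, and 10 without KO replicate 1 at 3 weeks. Dnajc3 was at 0.06 at 3 weeks and -1.02 at 10 weeks (difference -1.08, adjusted p = 0.0073).

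**Figure D5:**
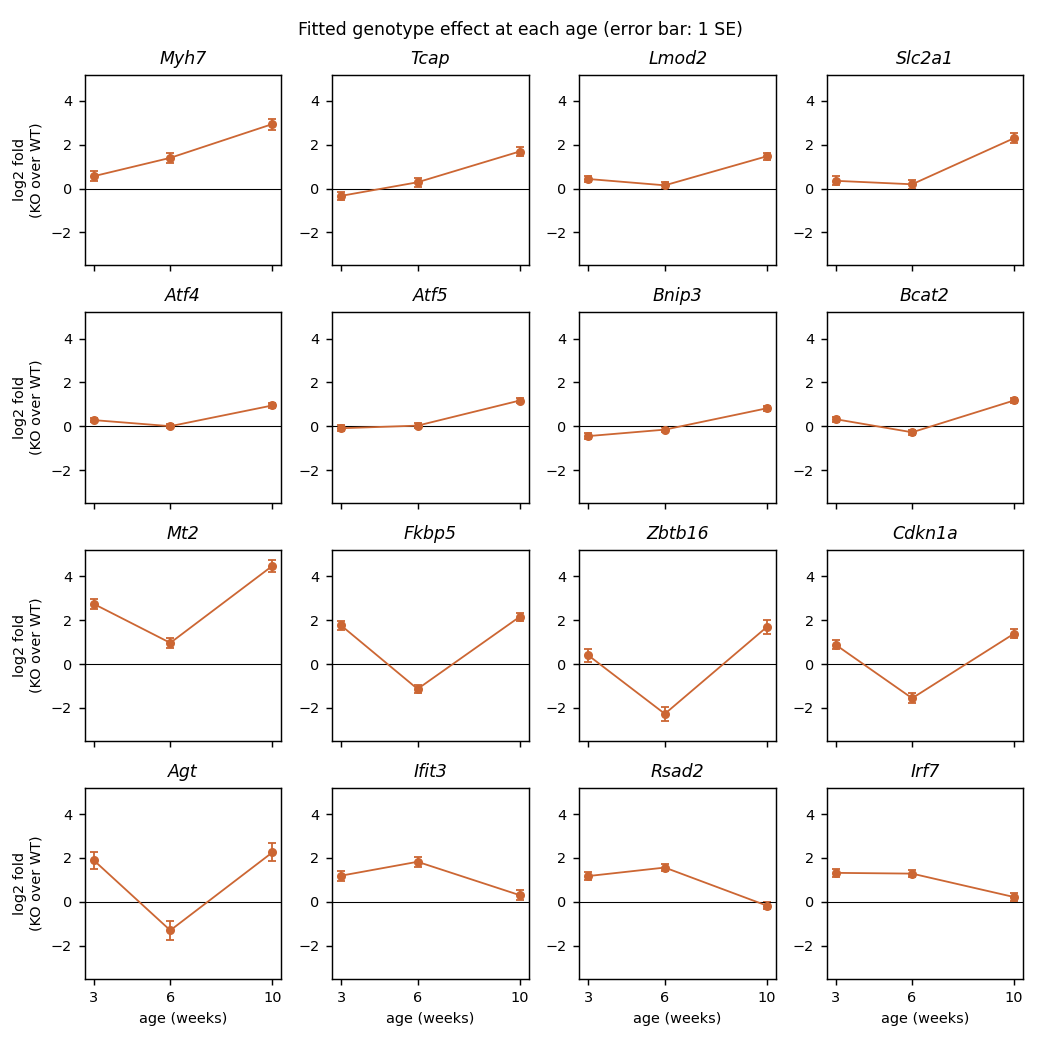
Fitted genotype effect (log2 fold change of KO over WT) of 16 genes at 3, 6 and 10 weeks of age, with error bars of 1 SE and lines joining the ages. Myh7, Tcap, Lmod2, Slc2a1, Atf4, Atf5, Bnip3 and Bcat2 have their highest value at 10 weeks, Mt2, Fkbp5, Zbtb16, Cdkn1a and Agt dip at 6 weeks, and Ifit3, Rsad2 and Irf7 lie at 0.31, -0.18 and 0.22 at 10 weeks.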

How the data were processed

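Total RNA (Qiagen RNeasy Plus Universal Mini) of the mid wall of the left ventricle was made into libraries with NEBNext Ultra II RNA reagents, per the labels' protocols. The deposited values are raw counts per gene, 1 table a library. Per the submitters' processing notes, the tools were STAR 2.5.2b, Trimmomatic 0.36 and featureCounts of Subread 1.5.2, with the build GRCm38, while the strand setting and the handling of reads that map to several genes are not given in the sources used here. Symbols came from GENCODE M21, which held 49056 of the 49315 gene identifiers.

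All 18 libraries entered 1 edgeR 4.0.16 fit (R 4.3.3; TMM, robust quasi-likelihood) with a term for each genotype and age, after filterByExpr (minimum count 10, minimum total 15) left 15778 genes. A gene was called where its p, adjusted by the Benjamini-Hochberg method, was under 0.05. Contrasts were KO against WT at each age and the difference of that effect between ages. Alternatives included other scalings and filters, limma 3.58.1, DESeq2 1.42.0, leaving out each library, and, added after seeing the data, leaving out libraries with Myl4 over 50 CPM. The fit was tested on simulated data with known changes. Depth was 15873296 to 20026389 counts in the 6 libraries, and a count of 0 was treated as up to 3 counts over a group for limits on folds, which cover counting error only.

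Genes named were Csrp3, the 12 largest increases and decreases with at least 2 CPM and no overlap, the 10 largest changes in mean CPM each way, up to 4 called members of each list and direction with the smallest p, the 8 largest differences between ages each way, and textbook genes of the failing heart. Other list members named were chosen after their values were seen. The groups, gene lists and some named genes were chosen with earlier results of these data known. Promoters came from RefSeq windows of GRCm38.p6. Some members of the lists are counted and not reported by name here.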

Additional observations from a re-analysis of the deposited data

Results flagged for a closer look

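The genotype effect differed between ages for 908 genes at 10 against 6 weeks and for 909 genes at 10 against 3 weeks, by the test of the difference itself (edgeR, adjusted p under 0.05). Values below are the log2 difference of the KO to WT effect, 10 weeks minus the younger age, for the genes with the largest differences. Where a group is at or near 0 the fitted size depends on the prior count and is no bound. With 1 of the 12 libraries of a comparison left out at a time, the call of Prss55 held in 6 of 12 fits against 6 weeks (adjusted p up to 0.259) and in 5 against 3 weeks, and that of Pou3f1 in 9 against 6 weeks and in 5 against 3 weeks (adjusted p up to 0.426). Against 6 weeks Pak3 lost its call in 1 fit and Ighg2c in 2, and against 3 weeks Gbp10 did in 1.

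In several of these genes the WT level at 10 weeks stood apart from that of younger WT, as in Ptprn2 (11.21 against 6 weeks and 10.30 against 3 weeks), Kcnj14 (6.15 and 7.96), Hist1h2al (7.50 and 6.97), Eps8l1 (-6.65 and -5.86) and Hrasls, a phospholipase gene (-4.20 and -3.99), all among the 17 such genes. The same holds for Rpl15-ps2 (6.67 and 5.72) and Tpm3-rs7 (5.78 against 6 weeks), copies of a ribosomal protein and a tropomyosin gene whose reads may belong to near-identical genes, and for Cnmd, the cartilage protein chondromodulin (-3.40 against 3 weeks). Hist1h2al is annotated as a processed pseudogene, so its reads may belong to near-identical genes too. What sets WT at 10 weeks apart was not tested.

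Pou3f1, a POU transcription factor (5.07 and 4.60), Pak3, a p21-activated kinase (4.62 and 5.52), and Psca (6.70 against 3 weeks) were near 0 in WT at 10 weeks and present in KO. Tent5b, a poly(A) polymerase gene, had a difference of 5.77 against 6 weeks, and Rbpj-ps3, a pseudogene, 7.21 against 3 weeks. Lower effects at 10 weeks were seen for Unc5a, a netrin receptor (-4.17 and -5.04), Prss55, a serine protease gene (-3.22 and -3.13), Ighg2c, an immunoglobulin heavy chain gene (-5.42 against 6 weeks), Gal3st2c, a sulfotransferase gene (-3.43 against 6 weeks), H2-Q5, a class Ib histocompatibility gene (-3.34 against 6 weeks), and Slfn8, of the interferon-induced schlafen family (-3.25 against 6 weeks). Against 3 weeks they included Gbp10, a guanylate-binding protein (-3.59), the fatty acid thioesterase gene Acot1 (-3.14) and Fbp2, the muscle fructose bisphosphatase (-3.07). H2-Q5, Gbp10 and Slfn8 belong to multigene families, so reads may be split between relatives.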

How the results depend on the processing

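The 4625 genes called at 10 weeks stayed within 1.5 times of that count under every alternative run, between 3511 (without KO replicate 2) and 4869 (DESeq2). Csrp3 was called in each, with a log2 fold change of 1.05 to 1.59. The counts for differences between ages were less stable. For 10 against 6 weeks, 908 became 1550 with no filter on low counts and 1478 with DESeq2, and ranged from 460 to 1598 when each library was left out. For 10 against 3 weeks, 909 became 1479 with no filter and 484 with only the libraries of the contrast, and ranged from 552 to 1497. The causes were not tested. No named gene that was called changed sign, but the 10 against 3 week calls, 445 higher and 464 lower, became 495 and 330 without KO replicate 1 at 10 weeks. The labels do not say whether replicate numbers pair the samples, and no pairing was used in the main fit. At 10 weeks same-numbered WT and KO libraries had deviations correlated at 0.025, -0.080 and 0.063 across genes. This cannot decide the question, since a shared factor may act on few genes. With a replicate block the counts were 4421, 839 and 810. Of the named genes called at 10 weeks, 8 lost their call with RLE scaling, 8 with voom, 4 with DESeq2, 27 with only the 10-week libraries, and 22 to 40 with 1 library left out. Scalings moved the median log2 fold change of all genes between -0.06 and 0.00. At this depth and spread a gene that did not pass may still differ by 1.5-fold or 2-fold.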

Other observations

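Antioxidant genes went both ways, 8 of 22 higher and 5 lower in KO, beside 14.6% and 14.7% of all genes, and 9 and 3 without KO replicate 1. Gpx3, the secreted glutathione peroxidase, was at 178, 235 and 198 CPM in WT and 964, 694 and 696 CPM in KO (log2 1.95, SE 0.19, adjusted p = 5.2e-07). Srxn1, sulfiredoxin, and Nqo1, a quinone reductase, both known targets of NRF2, rose by 1.37 (SE 0.22) and 0.94 (SE 0.13). Maob and Maoa, monoamine oxidases of the mitochondrial outer membrane, went apart, Maob from 64.1, 57.2 and 59.6 CPM to 29.7, 11.1 and 15.8 CPM and Maoa from 4.09, 4.09 and 2.61 CPM to 8.42, 10.3 and 9.46 CPM, with no overlap of the groups in either. Sod2, the mitochondrial superoxide dismutase, fell by 0.52 (SE 0.10).

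Growth and cell cycle genes changed in few members. Of 30 proliferation genes 3 were higher and 4 lower, beside 14.6% and 14.7% of all genes, and 4 and 2 without KO replicate 2. They included Mcm6, of the replicative helicase, at 2.81, 2.41 and 1.86 CPM in WT and 8.70, 8.89 and 8.23 CPM in KO (log2 1.86, SE 0.23, adjusted p = 3.7e-06), and Mcm2, of the same helicase, which fell by 0.78 (SE 0.19). Of 16 p53 targets 4 were higher and none lower, beside 14.6% and 14.7% of all genes. Among them Phlda3, an inhibitor of AKT, was at 7.45, 10.9 and 9.18 CPM in WT and 26.9, 38.8 and 28.9 CPM in KO (log2 1.79, SE 0.16, adjusted p = 3.2e-08). Cdkn1c, an imprinted cell cycle inhibitor, was at 35.8, 37.5 and 53.9 CPM in WT and 16.6, 13.7 and 14.9 CPM in KO (log2 -1.50, SE 0.15, adjusted p = 2.9e-07). Immediate early genes were higher in 5 of 18 and lower in 1, beside the same shares of all genes. Nr4a3, an orphan nuclear receptor gene, was at 1.92, 3.14 and 1.92 CPM in WT and 40.1, 32.6 and 14.0 CPM in KO (log2 3.63, SE 0.50, adjusted p = 0.00010). Each KO value of Nr4a3 was above each WT value, with replicate 3 the lowest in KO.

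Antigen presentation, complement and chemokine genes were higher in 7 of 24 and lower in 3, beside 14.6% and 14.7% of all genes. The counts were 4 and 1 without WT replicate 1, 5 and 1 without KO replicate 2 and 7 and 1 without KO replicate 3. B2m, the light chain of class I molecules, was at 87.9, 77.9 and 85.4 CPM in WT and 137, 149 and 125 CPM in KO (log2 0.71, SE 0.13, adjusted p = 0.00022), and Cx3cl1, the chemokine fractalkine, at 9.57, 11.2 and 10.5 CPM in WT and 25.5, 51.0 and 22.3 CPM in KO (log2 1.66, SE 0.25, adjusted p = 4.6e-05). By gene type, 44 of 366 lincRNA genes tested were higher and 64 lower, against 2156 and 2051 of 13799 protein-coding genes.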
